A study of Homo sapiens with 18 samples.

Results

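Claudins are the membrane proteins that form the strands of tight junctions, the seals between neighbouring epithelial cells. Messenger RNA of 9 claudin genes (CLDN1, CLDN2, CLDN3, CLDN4, CLDN7, CLDN12, CLDN15, CLDN18 and CLDN23) was measured in 3-dimensional cultures of the human colorectal cancer lines HT29 and Colo-205. The members were taken by gene symbol from the platform's annotation: 12 of the 47323 probes of the arrays, and 9 of the 20044 named genes, belonged to them, and CLDN18 alone had more than 1 probe, with 4. The groups were HT29 cells given 3 µM PLX4720, a small-molecule inhibitor of the kinase BRAF, for 1, 3 or 8 days, HT29 cells given the solvent DMSO for the same times, Colo-205 cells given 3 µM PLX4720 for 1, 3 or 10 days, and Colo-205 cells given DMSO for those times. Both lines are BRAF-mutant according to the study's title, and all cells, controls included, grew in Matrigel, a basement membrane extract, for 5 days before the agents were added. Each of the 6 HT29 groups had 2 arrays, described as biological duplicates, while each of the 6 Colo-205 groups had 1 array. Each line stands for 1 tumour, with no stroma, immune cells or normal epithelium in the culture.

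Claudins span the membrane, and those of adjacent cells bind each other across the gap between the cells. Some members, among them CLDN1, CLDN3, CLDN4 and CLDN18, are known as sealing claudins that tighten the barrier, while CLDN2 and CLDN15 form channels for small cations through it. In the intestine the channel-forming members are prominent in crypts and in the small bowel, sealing members are prominent in the colon, and CLDN18 is best known from stomach and lung. BRAF passes growth signals through the MAPK cascade, whose transcriptional output includes the AP-1 family, and CDX factors set the intestinal programme in gut epithelium.

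The start regions of 3 members are shown: CLDN2, which was lower in HT29 on every day, CLDN15, which was higher in both lines, and CLDN18, which was above background in Colo-205 with PLX4720 alone. That of CLDN1, the other member with a large HT29 change, held neither set of letters marked here and is not printed. The other listed start of CLDN2 and that of CLDN18 also held neither set and are not printed. Which start gave the transcript read by a probe was not tested. Capitals mark the letters TGANTCA, bound by AP-1, and TTTAT, bound by CDX factors, both searched on both strands. Each stretch runs from 250 bases before to 50 bases after an annotated start of RefSeq, build GRCh38.p14, printed along the gene's strand. The 3 stretches are CLDN2 at chrX:106899914-106900213 on the plus strand (the first of its listed starts), CLDN15 at chr7:101237753-101238052 on the minus strand and CLDN18 at chr3:137998566-137998865 on the plus strand (the first of its listed starts).
CLDN2: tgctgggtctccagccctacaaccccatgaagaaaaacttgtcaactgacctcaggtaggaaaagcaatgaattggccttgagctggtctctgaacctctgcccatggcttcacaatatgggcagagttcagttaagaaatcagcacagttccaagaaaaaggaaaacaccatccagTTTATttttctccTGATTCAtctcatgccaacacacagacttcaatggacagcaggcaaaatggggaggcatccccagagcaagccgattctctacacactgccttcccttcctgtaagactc
CLDN15: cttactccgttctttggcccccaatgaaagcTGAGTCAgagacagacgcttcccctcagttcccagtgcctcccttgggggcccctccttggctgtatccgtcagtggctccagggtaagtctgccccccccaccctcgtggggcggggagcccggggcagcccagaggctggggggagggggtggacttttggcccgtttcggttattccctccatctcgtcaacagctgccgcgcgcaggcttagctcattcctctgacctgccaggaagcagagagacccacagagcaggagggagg
CLDN18: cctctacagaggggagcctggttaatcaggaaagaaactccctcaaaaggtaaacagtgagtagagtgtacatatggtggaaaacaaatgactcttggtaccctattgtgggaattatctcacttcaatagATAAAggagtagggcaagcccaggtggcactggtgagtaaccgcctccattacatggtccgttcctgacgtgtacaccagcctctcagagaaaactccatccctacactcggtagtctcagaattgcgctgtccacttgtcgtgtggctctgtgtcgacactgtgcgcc

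The AP-1 letters began at -60 from the start in CLDN2 and at -219 in CLDN15, and the CDX letters at -73 in CLDN2 and at -119 in CLDN18, where they overlapped a match to the GATA letters AGATAA. Entries were matched for 8 of the 9 members, with 11 start regions in all. In these, 10 sets of letters were searched. The AP-1 letters were in 3 of the 11 start regions (of CLDN2, CLDN4 and CLDN15) and in 7.71% of all 35116 start regions. The CDX letters were in 2 of the 11 (of CLDN2 and CLDN18) and in 34.9% of all. CAGGTG, the core bound by Snail and ZEB repressors, was in those of CLDN3, CLDN7 and CLDN18 and in 20.6% of all, and the GC box GGGCGG in those of 6 members and in 45% of all. A TATA box, TATAAA, was in none of the 11 and in 11.5% of all. HNF4 letters, CAAAG, were in start regions of CLDN2, CLDN3, CLDN4 and CLDN15 and in 47.5% of all. STAT letters, TTCNNNGAA, were in those of CLDN2 and CLDN12 and in 7.66% of all. TCF/LEF letters, CTTTGA, were in that of CLDN4 and in 12.9% of all. HNF1 letters, GTTAAT, and the GATA letters were each in 1 start region of CLDN18 and in 6.88% and 10.3% of all. These matches describe letters in a window and say nothing of which factor binds there.

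Values below are log2 normalised intensities from Illumina BeadChips, and a probe was called above background on an array where the deposited detection p-value was under 0.01. Between 38.3% and 41.4% of all probes passed this on each array. HT29 duplicates correlated at 0.986 to 0.991 across the 12675 genes tested in HT29, with 1 probe for each. All 12 HT29 arrays were on 1 BeadChip and all 6 Colo-205 arrays on another, so differences in level between lines cannot be told apart from the BeadChip. Of 11 colon epithelial markers, 9 were above background on all HT29 arrays and 9 on all Colo-205 arrays. Among 12 markers of fibroblasts, endothelium and immune cells, 5 (COL3A1, CDH5, VWF, PTPRC and CD3E) were above background on no array, and only ACTA2 and CD68 on all HT29 arrays and only CD68 on all Colo-205 arrays.

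The summed raw intensity of those 12 markers was higher with PLX4720 than with DMSO in HT29 at day 1 (1872 to 1996 against 1432 to 1459) and day 3 (2242 to 2330 against 1598 to 1620), and the ranges overlapped at day 8 (2164 to 2404 against 2254 to 2291). In Colo-205 the sums at days 1, 3 and 10 were 6366, 4825 and 5620 with PLX4720, against 3873, 3536 and 4539 with DMSO. CD68, and in HT29 also ACTA2, carried these differences: CD68 read 484 to 571 with PLX4720 in HT29 at day 1, against 216 to 231 with DMSO, and 5365 with PLX4720 in Colo-205 at day 1, against 2784 with DMSO. The other 10 markers summed to 997 to 1017 with PLX4720 in HT29 at day 1, against 999 to 1065 with DMSO, and to 907 with PLX4720 in Colo-205 at day 1, against 999 with DMSO. The part of these other markers, and of the epithelial markers that moved with treatment, in the claudin results was not tested. In these lysates, fewer cells with a transcript and less of it per cell cannot be told apart.

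Of the 9 claudins, 7 (all but CLDN2 and CLDN18) were above background on all 18 arrays. CLDN2 was above background on all 12 HT29 arrays and on 4 of 6 Colo-205 arrays. CLDN18 was above background with its probe ILMN_1696284 only on the 3 Colo-205 arrays with PLX4720. Its probe ILMN_2389054 was above background on those same 3 arrays and on 2 HT29 arrays, and its probes ILMN_1662484 and ILMN_2284157 on none. In HT29, tests of CLDN18 used ILMN_2389054, and in Colo-205 they used ILMN_1696284, which entered the test only through the PLX4720 arrays.

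**Figure D1:**
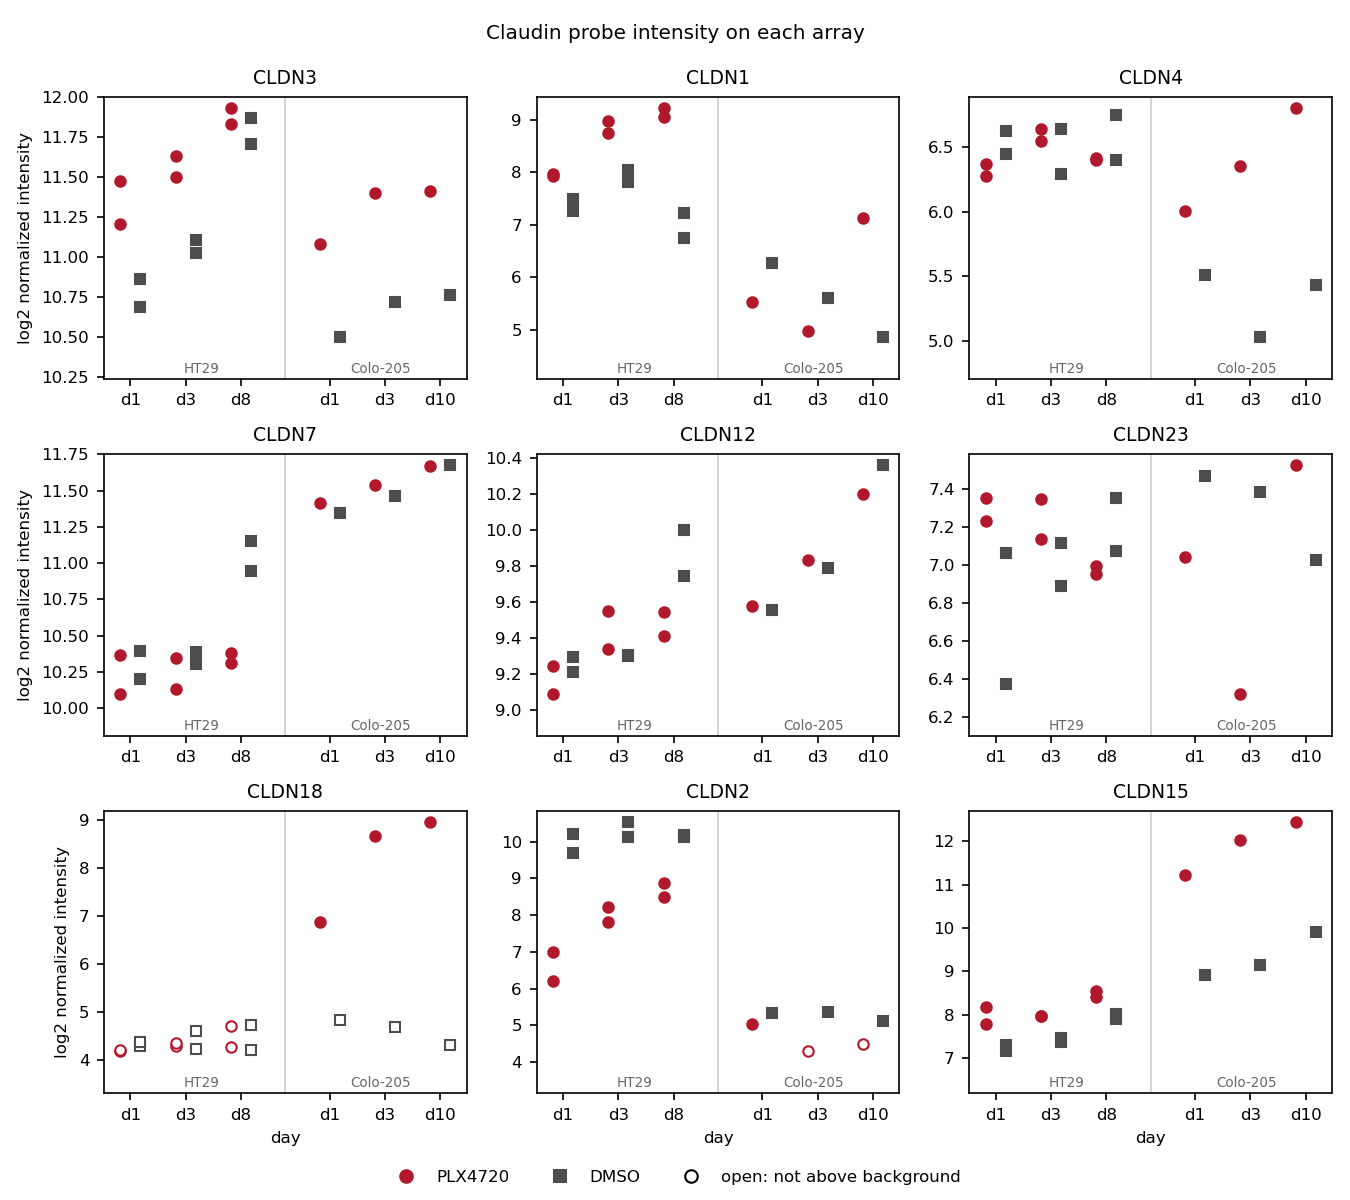
Log2 normalised intensity (y axis) of the 9 claudins on each array by day of treatment (x axis), 1 panel per gene, for HT29 and Colo-205 (PLX4720 circles left of DMSO squares, open symbols not above background, CLDN18 as probe ILMN_1696284). CLDN2 in HT29 lies at 6.22 to 8.88 on PLX4720 arrays, below the DMSO arrays at 9.70 to 10.53, and CLDN15 in Colo-205 lies at 11.21 to 12.43 on PLX4720 arrays, above the DMSO arrays at 8.92 to 9.91.

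CLDN2, the channel for sodium ions and water, was lower with PLX4720 in HT29 on every day, and the gap was widest on the first day. At day 1 its 2 arrays read 6.22 and 7.00 with PLX4720, against 9.70 and 10.21 with DMSO. At day 3 they read 7.81 and 8.23 with PLX4720, against 10.13 and 10.53 with DMSO, and at day 8 8.48 and 8.88 with PLX4720, against 10.13 and 10.19 with DMSO. All 6 PLX4720 arrays lay below all 6 DMSO arrays, the PLX4720 days did not overlap each other and stood in the order day 1, day 3 and day 8, and the DMSO days overlapped. CLDN2 fell by 3.35 ± 0.29 at day 1 on the log2 scale, or 10.2-fold (limma, SE, Benjamini-Hochberg adjusted p = 0.00011), by 2.31 ± 0.29 at day 3 (adjusted p = 0.00123) and by 1.48 ± 0.29 at day 8 (adjusted p = 0.00878). The size at day 1 depended on the background correction, and without one the log2 change of CLDN2 was -2.57, still past the threshold.

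The day 8 call for CLDN2 was lost without DMSO day 8 replicate 2 (adjusted p = 0.0538) and without PLX4720 day 8 replicate 1 (adjusted p = 0.0687). The CLDN2 response narrowed with time: the effect at day 8 minus the effect at day 1 was 1.87 ± 0.41 (limma, adjusted p = 0.0159). Without DMSO day 1 replicate 2 (adjusted p = 0.052) or PLX4720 day 8 replicate 2 (adjusted p = 0.0579) that difference missed the threshold, and with the authors' processed values it was 1.25. Under PLX4720 itself CLDN2 was 2.07 ± 0.29 higher at day 8 than at day 1 (adjusted p = 0.00184), or 1.44 with no background correction, while under DMSO the same difference was 0.20 (adjusted p = 0.618).

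In Colo-205, CLDN2 was near background, at 5.02, 4.29 and 4.49 on the PLX4720 arrays of days 1, 3 and 10, against 5.32, 5.37 and 5.11 on the DMSO arrays. The DMSO array was the brighter one on each day, and the PLX4720 arrays of days 3 and 10 were not above background. The difference of -0.67 ± 0.21 over the 3 days did not pass (limma with day as a block, adjusted p = 0.192). Where a group was below background, a fold is given here as a bound. It is taken against the lowest signal above background on that array, or against the array's own reading where that was higher. CLDN2 was thus at least 1.82-fold lower at day 3 and at least 1.48-fold lower at day 10, each on 1 array per treatment and so without a test.

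CLDN15, the other channel-forming claudin and a paracellular route for sodium ions in the small intestine, was higher with PLX4720 in both lines. In Colo-205 it read 11.21, 12.02 and 12.43 on the PLX4720 arrays of days 1, 3 and 10, against 8.92, 9.14 and 9.91 on the DMSO arrays. Raw intensities on the same arrays were 2581, 3627 and 4840 with PLX4720, against 569.3, 569.2 and 863.3 with DMSO. Every PLX4720 array lay above every DMSO array, and the daily gaps were 2.29, 2.88 and 2.53.

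Over the 3 days CLDN15 was 2.57 ± 0.19 higher with PLX4720 in Colo-205, or 5.93-fold (limma with day as a block, adjusted p = 0.0106). Without the PLX4720 array of day 3 (adjusted p = 0.127) or the DMSO array of day 3 (adjusted p = 0.128) the call was lost, while the difference stayed at 2.41. In those 2 fits 0 of all genes passed the adjusted threshold in limma, and 1033 genes without the PLX4720 array and 1024 without the DMSO array had an unadjusted p under 0.05. Without a day 1 array 39 or 47 genes passed, and without a day 10 array 459 or 435, with the DMSO array left out given first.

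In HT29 the CLDN15 difference was smaller. At day 1 its arrays read 8.18 and 7.80 with PLX4720, against 7.15 and 7.31 with DMSO, at day 3 7.96 and 7.97 with PLX4720, against 7.37 and 7.47 with DMSO, and at day 8 8.40 and 8.55 with PLX4720, against 7.90 and 8.02 with DMSO. The groups did not overlap on any day, although the DMSO arrays of day 8 lay within the range of the PLX4720 arrays of day 1. CLDN15 was 0.76 ± 0.15 higher at day 1 (limma, adjusted p = 0.00611), 0.55 ± 0.15 at day 3 (adjusted p = 0.0337) and 0.52 ± 0.15 at day 8 (adjusted p = 0.0424).

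The later CLDN15 calls in HT29 were close to the threshold. The day 3 call was lost without any 1 of the 4 arrays of that day: without DMSO replicate 1 or 2 the adjusted p was 0.165 or 0.0952, and without PLX4720 replicate 1 or 2 it was 0.125 or 0.137. The day 8 call held only without PLX4720 day 1 replicate 1 or 2 and was lost without any other single HT29 array, with adjusted p between 0.0509 and 0.207. The day 3 call was also lost with every probe fitted (adjusted p = 0.0585) or no filter (adjusted p = 0.0508), and the day 8 call with these, a detection limit of 0.05, median centring or a replicate block (adjusted p = 0.0533 to 0.0874). Averaged over the 3 days, the CLDN15 difference was 0.61 ± 0.08 (adjusted p = 0.000692). The change of the CLDN15 effect between day 1 and day 8, -0.24, did not pass (adjusted p = 0.475, 95% interval -0.71 to 0.22).

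CLDN1, a sealing claudin needed for the skin barrier in mice, was higher with PLX4720 in HT29, and more so later. Its arrays read 7.97 and 7.93 with PLX4720, against 7.27 and 7.49 with DMSO, at day 1. At day 3 they read 8.97 and 8.75 with PLX4720, against 8.03 and 7.81 with DMSO, and at day 8 9.23 and 9.05 with PLX4720, against 7.23 and 6.76 with DMSO. The groups were apart on each day, with the PLX4720 arrays of day 8 the brightest of all and the DMSO arrays of day 8 the dimmest. The DMSO arrays of day 3 overlapped the PLX4720 arrays of day 1.

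CLDN1 was 0.57 ± 0.18 higher at day 1 (limma, adjusted p = 0.048), 0.94 ± 0.18 at day 3 (adjusted p = 0.00822) and 2.14 ± 0.18, or 4.42-fold, at day 8 (adjusted p = 7.72e-05). The day 1 call held only without DMSO day 8 replicate 1 or 2 and was lost without any other single HT29 array, with adjusted p between 0.0589 and 0.205. It was also lost with a detection limit of 0.05, with every probe fitted, with no filter or with median centring (adjusted p = 0.0502 to 0.0754). The day 3 call was lost without DMSO day 3 replicate 2 (adjusted p = 0.059) and without PLX4720 day 3 replicate 1 (adjusted p = 0.0597). The effect at day 8 exceeded that at day 1 by 1.58 ± 0.25 (adjusted p = 0.00382), a difference that passed without each HT29 array in turn. Under PLX4720, CLDN1 was 1.19 ± 0.18 higher at day 8 than at day 1 (adjusted p = 0.00251), and under DMSO the difference was -0.39 ± 0.18 (adjusted p = 0.11), which passed without DMSO day 8 replicate 1 (-0.62, adjusted p = 0.0236).

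In Colo-205 the days did not share a direction for CLDN1. It read 5.53, 4.98 and 7.13 on the PLX4720 arrays of days 1, 3 and 10, against 6.26, 5.60 and 4.86 on the DMSO arrays, so PLX4720 was below DMSO at days 1 and 3 and 2.26 above it at day 10. The difference over the days, 0.30 ± 0.60, did not pass (limma with day as a block, adjusted p = 0.848), and it was -0.68 without either array of day 10. CLDN1 was above background on all 6 Colo-205 arrays but near it on some. The dimmest were the PLX4720 array of day 3 and the DMSO array of day 10, which enters the gap of 2.26.

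CLDN3, an abundant sealing claudin of the colon and a receptor for Clostridium perfringens enterotoxin, was modestly higher in HT29 on the first days. At day 1 its arrays read 11.47 and 11.20 with PLX4720, against 10.86 and 10.69 with DMSO, and at day 3 11.63 and 11.50 with PLX4720, against 11.02 and 11.10 with DMSO. At day 8 they read 11.93 and 11.83 with PLX4720, against 11.87 and 11.70 with DMSO, and the groups overlapped. CLDN3 was 0.56 ± 0.14 higher at day 1 (limma, adjusted p = 0.0167) and 0.50 ± 0.14 higher at day 3 (adjusted p = 0.0354), and the day 8 difference of 0.09 did not pass (adjusted p = 0.703).

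The day 1 call for CLDN3 was lost without DMSO day 1 replicate 2 (adjusted p = 0.0887) and without PLX4720 day 1 replicate 1 (adjusted p = 0.0977). Its day 3 call was lost without any 1 of the 4 arrays of day 3 or either PLX4720 array of day 8, with adjusted p between 0.0538 and 0.171, and with every probe fitted, no filter or median centring (adjusted p = 0.0631, 0.0539 and 0.0644). The difference between the effects of day 8 and day 1, -0.47, did not pass (adjusted p = 0.136) but did with the authors' processed values (adjusted p = 0.0442). In culture without inhibitor CLDN3 was 1.01 ± 0.14 higher at day 8 than at day 1, or 2.02-fold (adjusted p = 0.000376), and with PLX4720 it was 0.54 ± 0.14 higher (adjusted p = 0.0254), a call lost without PLX4720 day 1 replicate 2 (adjusted p = 0.15), PLX4720 day 8 replicate 1 (adjusted p = 0.133) or PLX4720 day 8 replicate 2 (adjusted p = 0.0876).

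In Colo-205 CLDN3 read 11.08, 11.40 and 11.41 on the PLX4720 arrays of days 1, 3 and 10, against 10.50, 10.72 and 10.76 on the DMSO arrays. All 3 PLX4720 arrays lay above all 3 DMSO arrays, and the difference of 0.64 ± 0.16 did not pass (limma with day as a block, adjusted p = 0.13). It passed with the authors' processed values (adjusted p = 0.0274), no background correction (adjusted p = 0.0308) or normexp on the intensities alone (adjusted p = 0.0385).

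CLDN4, which like CLDN3 binds Clostridium perfringens enterotoxin and limits the passage of cations, did not pass in HT29 on any day. Over the 6 arrays of each treatment it ranged from 6.28 to 6.64 with PLX4720, with a median of 6.41, and from 6.29 to 6.75 with DMSO, with a median of 6.54. The ranges overlapped, and the 95% interval of the difference averaged over days was -0.29 to 0.12 (limma, adjusted p = 0.527). In Colo-205 CLDN4 read 6.01, 6.35 and 6.80 on the PLX4720 arrays of days 1, 3 and 10, against 5.51, 5.03 and 5.44 on the DMSO arrays. Those ranges did not overlap, but the difference of 1.06 ± 0.23 did not pass (adjusted p = 0.0982). The CLDN4 readings with DMSO were above background but near it.

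CLDN7, which also lies along the lateral membrane and binds EPCAM, was lower with PLX4720 in HT29 at day 8. At day 8 it read 10.31 and 10.38 with PLX4720, against 10.95 and 11.15 with DMSO, and the 8 HT29 arrays of days 1 and 3 all lay between 10.10 and 10.39. The DMSO arrays of day 8 thus stood above the other 10 HT29 arrays, which overlapped. CLDN7 fell by 0.70 ± 0.14 with PLX4720 at day 8 (limma, adjusted p = 0.0107), and the differences of -0.07 at day 1 (adjusted p = 0.784) and -0.11 at day 3 (adjusted p = 0.657) did not pass.

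That call for CLDN7 was lost without DMSO day 8 replicate 2 (adjusted p = 0.0677), PLX4720 day 8 replicate 1 (adjusted p = 0.0699) or PLX4720 day 8 replicate 2 (adjusted p = 0.052). The change of the CLDN7 effect between day 1 and day 8 was -0.64 ± 0.20 and did not pass (adjusted p = 0.0663), although it did with the authors' processed values (adjusted p = 0.00877), no background correction (adjusted p = 0.0124) or normexp on the intensities alone (adjusted p = 0.0259). With DMSO, CLDN7 was 0.75 ± 0.14 higher at day 8 than at day 1 (adjusted p = 0.00267), and with PLX4720 the difference was 0.12 (adjusted p = 0.646). In Colo-205 CLDN7 read 11.42, 11.54 and 11.67 with PLX4720, against 11.35, 11.46 and 11.68 with DMSO, and its difference of 0.05 had a 95% interval of -0.35 to 0.44 (adjusted p = 0.918).

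CLDN12, a member without the scaffold-binding tail of most claudins, had a like pattern in HT29 without passing the treatment test. At day 8 it read 9.41 and 9.54 with PLX4720, against 10.00 and 9.75 with DMSO, a difference of -0.40 ± 0.14 (limma, adjusted p = 0.0802) that passed under those same 3 alternatives (adjusted p = 0.0185, 0.0242 and 0.0411), and the 8 arrays of days 1 and 3 lay between 9.09 and 9.55. With DMSO it was 0.62 ± 0.14 higher at day 8 than at day 1 (adjusted p = 0.00513). In Colo-205 it read 9.58, 9.83 and 10.20 with PLX4720, against 9.56, 9.79 and 10.36 with DMSO, and the difference of -0.03 did not pass (adjusted p = 0.949).

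CLDN23, a sealing member of the surface epithelium of the colon, read 7.35 and 7.23 with PLX4720 at day 1 in HT29, against 7.07 and 6.38 with DMSO. The DMSO duplicates lay farther apart than the gap between the groups, and the difference of 0.57 ± 0.21 did not pass (limma, adjusted p = 0.0883) but did without DMSO day 1 replicate 1 (0.92, adjusted p = 0.0134), with the authors' processed values (0.35, adjusted p = 0.0411) and with no background correction (0.34, adjusted p = 0.0455). At day 3 it read 7.35 and 7.14 with PLX4720, against 7.12 and 6.89 with DMSO, and at day 8 7.00 and 6.95, against 7.35 and 7.07 with DMSO, without passing on either day. In Colo-205 it read 7.04, 6.32 and 7.53 with PLX4720 on days 1, 3 and 10, against 7.47, 7.38 and 7.03 with DMSO, with the day 10 pair in the other order, and did not pass (adjusted p = 0.637).

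CLDN18, the stomach and lung claudin, was above background in Colo-205 with PLX4720 and not with DMSO at the detection limit of 0.01. The DMSO arrays of days 1 and 3 had detection p-values of 0.0107 and 0.0332 for probe ILMN_1696284. Both would count as above background at a limit of 0.05. Probe ILMN_1696284 read 6.87, 8.67 and 8.96 on the PLX4720 arrays of days 1, 3 and 10, against 4.83, 4.70 and 4.32 on the DMSO arrays, none of which was above background. Each PLX4720 array stood above every DMSO array, and the bound on the fold was 4.11 at day 1, 15.8 at day 3 and 21.6 at day 10. At days 1 and 3 the DMSO array's own reading was the higher reference, so those values are plain folds. Over the days the bound was at least 11.2-fold (limma with day as a block, adjusted p = 0.0385). Since the probe entered that fit only through the arrays where it was high, this p is a description and CLDN18 is left out of the counts for Colo-205.

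With no filter on dim probes the adjusted p for CLDN18 was 0.122, and without the PLX4720 or the DMSO array of day 3 it was 0.222 or 0.225. The fitted log2 difference of 3.55 also moved, to 1.87 with the authors' processed values, 1.89 with no background correction and 2.22 with normexp on the intensities alone, and to 4.31 without either array of day 1. The second probe, ILMN_2389054, read 4.96, 5.18 and 6.01 with PLX4720, against 5.01, 4.58 and 4.31 with DMSO. Its pair of day 1 arrays was thus level, although only the PLX4720 array was called above background. The probe was at least 1.51-fold higher at day 3 and at least 2.81-fold higher at day 10. The other 2 CLDN18 probes stayed at background with both treatments, so the 4 probes of this gene disagreed. In HT29 the difference of ILMN_2389054 did not pass on any day, and ILMN_1696284 read 4.18 to 4.71 with PLX4720 and 4.21 to 4.72 with DMSO, below background on all 12 arrays.

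**Figure D2:**
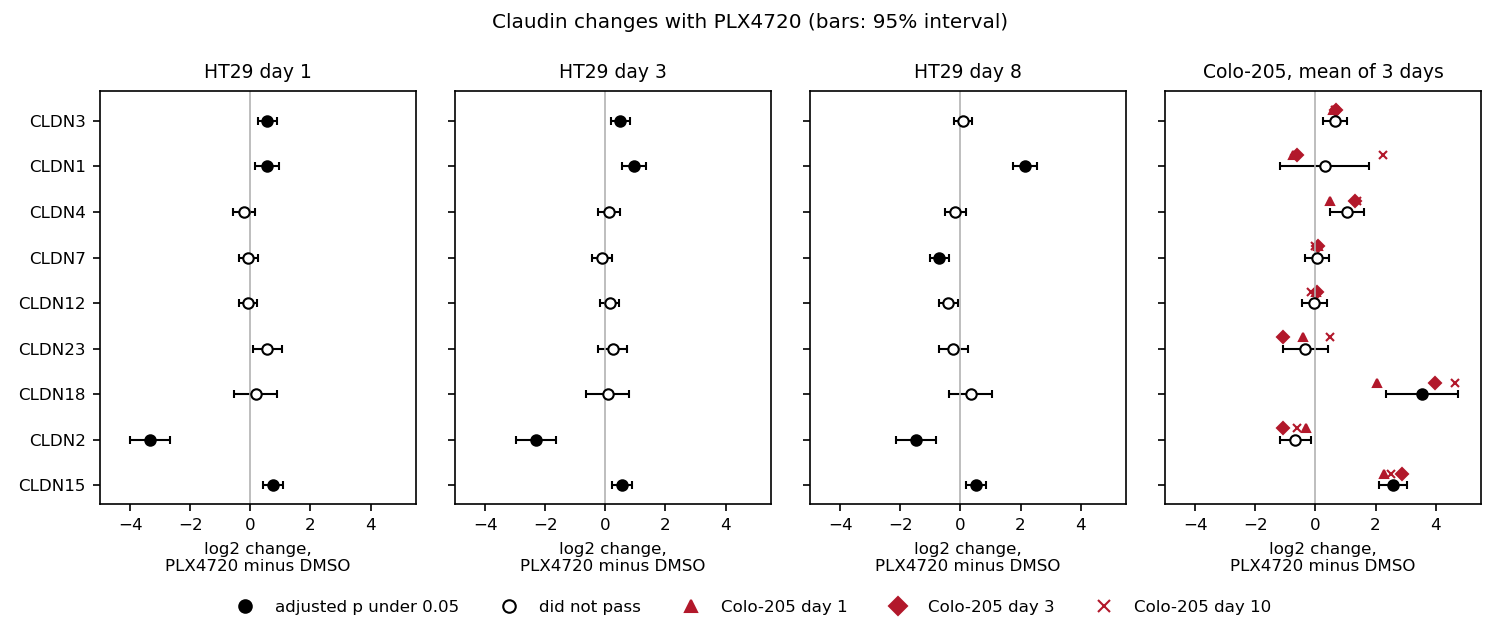
Log2 change with PLX4720 relative to DMSO (x axis) of each claudin (y axis) in HT29 at days 1, 3 and 8 and in Colo-205 over its 3 days, as circles with 95% intervals from limma (filled where the adjusted p was under 0.05; single Colo-205 days as small symbols; CLDN18 as probe ILMN_2389054 in HT29 and ILMN_1696284 in Colo-205). CLDN2 is the lowest point at each HT29 day, CLDN1 moves right to 2.14 at day 8, and CLDN15 lies at 2.57 in Colo-205, where the CLDN18 point rests on DMSO arrays at background.

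Counted by day, 3 of the 9 claudins were higher and 1 was lower at day 1 in HT29 (limma, adjusted p under 0.05), where 22.6% of the 12675 genes tested passed, 11.8% higher and 10.8% lower. At day 3 the counts were again 3 higher and 1 lower, against 8.95% and 7.53% of all genes, and at day 8 they were 2 higher and 2 lower, against 7.34% and 8.62%. The median claudin change was 0.18, 0.14 and -0.17 on the 3 days, and that of all genes was within 0.01 of 0. Averaged over days, CLDN1, CLDN3 and CLDN15 were higher and CLDN2 and CLDN7 lower, 5 of 9, where 32.8% of all genes passed, 16.9% higher and 16% lower.

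The number of claudins that passed moved with single arrays. At day 1 it was 2 without DMSO day 1 replicate 2 or PLX4720 day 1 replicate 1. At day 3 it was 1 without DMSO day 3 replicate 2 or PLX4720 day 3 replicate 1 and 2 without either other array of that day. At day 8 it was 1 without DMSO day 8 replicate 2 or PLX4720 day 8 replicate 1 and 2 without PLX4720 day 8 replicate 2.

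The CLDN7 average of -0.29 ± 0.08 (limma, adjusted p = 0.0243) was lost without any 1 of 6 arrays: DMSO day 1 replicate 1, DMSO day 3 replicate 1, DMSO day 8 replicate 2, PLX4720 day 1 replicate 1, PLX4720 day 3 replicate 2 and PLX4720 day 8 replicate 1, with adjusted p between 0.0521 and 0.0695. For the change of effect between day 1 and day 8, 2 claudins passed, CLDN1 and CLDN2, both with a positive difference, where 16% of all genes passed, 7.05% with a positive and 8.91% with a negative difference. In Colo-205, CLDN15 was higher and 0 were lower among the 8 claudins other than CLDN18, where 1.37% of the 11575 genes tested passed, 0.613% higher and 0.752% lower. Without either Colo-205 array of day 3 the count was 0, with 0 of all genes passing, as given above for CLDN15.

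The claudins were also compared between day 8 and day 1 within each treatment. With DMSO, CLDN3, CLDN7, CLDN12 and CLDN15 were higher at day 8 than at day 1, 4 of 9 claudins, where 42.4% of all genes tested passed, 22% higher and 20.4% lower. CLDN15 was 0.73 ± 0.15 higher in that comparison (limma, adjusted p = 0.00339). With PLX4720, CLDN1, CLDN2 and CLDN3 were higher at day 8 than at day 1, 3 of 9, where 16.1% of all genes passed, 8.62% higher and 7.5% lower. CLDN15 with PLX4720 was 0.49 ± 0.15 higher and did not pass (adjusted p = 0.0526), although it did with the authors' processed values (adjusted p = 0.0156), no background correction (adjusted p = 0.017) or normexp on the intensities alone (adjusted p = 0.0265).

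The effects of PLX4720 in both lines were compared at days 1 and 3, the days that the lines share, and of the 8 claudins other than CLDN18, 1 had a positive and 2 a negative difference that passed, where 4.13% of the 12848 genes tested differed, 2.61% positive and 1.52% negative. The CLDN1 effect was 1.43 ± 0.20 higher in HT29 than in Colo-205 (limma, adjusted p = 0.00503), or 0.83 with the authors' processed values. The HT29 effect minus the Colo-205 effect was -2.13 ± 0.47 for CLDN2 (adjusted p = 0.0372). That of CLDN15 differed by -1.93 ± 0.22 (adjusted p = 0.00198). In Colo-205 CLDN2 was near background on the DMSO arrays and not above it on the PLX4720 array of day 3, so its effect there is a bound. A fall as large as that in HT29 could not be read from that level, so the CLDN2 p is a description. The count of 2 negative differences includes CLDN2. The Colo-205 signal of CLDN1 was also near background at day 3, at 4.98 with PLX4720 and 5.60 with DMSO.

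The CLDN1 difference between lines was lost without the Colo-205 PLX4720 array of day 3 (adjusted p = 0.0512) and when all 18 arrays, days 8 and 10 included, were used (0.92, adjusted p = 0.476). The CLDN2 difference was lost without any 1 of 9 arrays, all 4 of Colo-205 among them and otherwise HT29 DMSO day 1 replicate 1 or 2, DMSO day 3 replicate 2, PLX4720 day 1 replicate 2 or PLX4720 day 3 replicate 1, with adjusted p between 0.0527 and 0.206, and with every probe fitted (adjusted p = 0.054) or no filter (adjusted p = 0.0544). The CLDN15 difference passed without each of the 12 arrays in turn. For CLDN18 no difference between lines is read, since its probe was above background on the Colo-205 PLX4720 arrays alone. CLDN4 (-0.95, adjusted p = 0.08) and CLDN23 (1.15, adjusted p = 0.066) did not pass. CLDN4 did without either Colo-205 array of day 1 (-1.37, adjusted p = 0.0414 and 0.0425) and with all 18 arrays (-1.15, adjusted p = 0.00757). CLDN23 did with the authors' processed values (adjusted p = 0.00923), no background correction (adjusted p = 0.0104) or normexp on the intensities alone (adjusted p = 0.0165).

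Profiles were compared after centring each gene on its mean, without scaling, so the size of a change counted as well as its shape. The genes nearest to CLDN2 over the 12 HT29 arrays were DUSP6, FJX1, FOS, SPRY4 and TGM2. Their root mean square differences were 0.466, 0.648, 0.681, 0.71 and 0.743 log2 units. The CLDN2 profile itself had an SD of 1.36. DUSP6, a phosphatase that switches off ERK, differed by -2.53, -2.21 and -2.33 on days 1, 3 and 8, a more even course than that of CLDN2. The genes nearest to CLDN1 were SOSTDC1, CAP2, TRIM24, INSM1 and CD302, at 0.225, 0.306, 0.321, 0.326 and 0.343 log2 units, against an SD of 0.768 for CLDN1. SOSTDC1, a secreted antagonist of BMP signalling, differed by 0.20, 1.10 and 2.30 on the 3 days. All genes in this ranking share the same arrays and treatment groups, so nearness describes these 12 arrays.

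**Figure D3:**
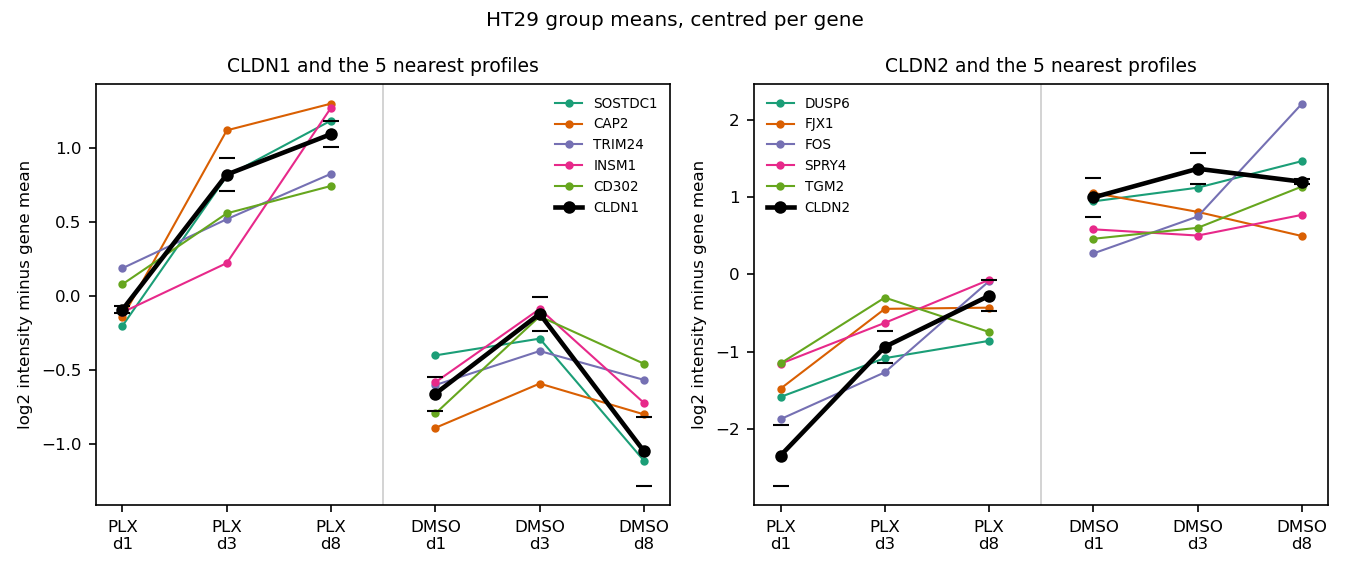
Log2 intensity minus each gene's mean (y axis) in the 6 HT29 groups (x axis, PLX4720 days left of DMSO days). CLDN1 and CLDN2 are in black, each with the 5 genes at the smallest root mean square difference in colour. Points are means of 2 arrays, and dashes are single arrays of the claudin. The CLDN2 lines are low on PLX4720 arrays, and the CLDN1 lines are highest on the PLX4720 arrays of day 8.

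Other claudin genes were mostly near background. Of 15 listed, 14 had probes and 8 were tested in HT29, with 0 passing at day 1 or day 3 and 1 at day 8 (limma), where CLDN24 was at least 1.61-fold lower with PLX4720 (adjusted p = 0.0234). The CLDN24 probe was above background in HT29 only with DMSO at day 8, so that value is a description. Of all genes 22.6%, 16.5% and 16% passed on these days. At an unadjusted p of 0.05, 4439, 3915 and 3755 of all 12675 genes were under the threshold on days 1, 3 and 8. In Colo-205 4 were tested and 0 passed, where 1.37% of the 11575 genes tested passed and 2018 had an unadjusted p under 0.05.

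Among the other membrane proteins of the tight junction, 6 of 11 listed were tested in HT29. Of these 1 was higher at day 1, 2 were higher at day 3, and 1 was higher and 2 lower at day 8. Of all genes 11.8%, 8.95% and 7.34% were higher on these days, and 10.8%, 7.53% and 8.62% lower. ILDR1, a protein of tricellular corners, was 1.56 ± 0.12 higher at day 1 (limma, adjusted p = 5.52e-05) and 1.09 ± 0.12 higher at day 3 (adjusted p = 0.000575). MARVELD3 was 0.62 ± 0.13 higher at day 3 (adjusted p = 0.0117) and 0.52 ± 0.13 higher at day 8 (adjusted p = 0.0243). At day 8 LSR, the other protein of tricellular corners on the list to pass, fell by 0.73 ± 0.15 (adjusted p = 0.0107), and CXADR, the coxsackievirus and adenovirus receptor, fell by 0.51 ± 0.13 (adjusted p = 0.0255).

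Of the cytoplasmic scaffold that anchors claudins to actin, 14 of 21 listed genes were tested, with 2 higher and 1 lower at day 1, 2 higher at day 3 and 1 lower at day 8. Over all genes 11.8% were higher and 10.8% lower at day 1, 8.95% and 7.53% at day 3 and 7.34% and 8.62% at day 8, so the scaffold counts were near these shares. CGNL1, or paracingulin, was 1.47 ± 0.19 higher at day 1 (limma, adjusted p = 0.000915) and 2.43 ± 0.19 at day 3 (adjusted p = 0.000119), and CGN, or cingulin, was 0.59 ± 0.14 and 0.55 ± 0.14 higher (adjusted p = 0.0175 and 0.0313). The CGNL1 effect at days 1 and 3 was 2.48 ± 0.33 higher in HT29 than in Colo-205 (adjusted p = 0.00408). Among 8 tested claudin partners and proteases, 2 were higher and 1 lower at day 1, and 2 were higher at day 3. TSPAN8, a tetraspanin, was 1.27 ± 0.15 higher at day 1 (adjusted p = 0.000457) and 0.92 ± 0.15 at day 3 (adjusted p = 0.0036). At day 8, 3 of the 8 were lower, CLDND1, WNK4 and ST14, by -0.78, -0.91 and -0.48.

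Transcription factors linked to junction genes were tested for 13 of 18 listed genes in HT29, of which 1 was higher at day 1, 4 at day 3 and 3 at day 8, with 1 lower at day 8, where 11.8%, 8.95% and 7.34% of all genes were higher. The count of 1 at day 1 was below that share. ELF3, an epithelial ETS factor, was 1.76 ± 0.12 higher at day 1 (limma, adjusted p = 4.08e-05) and 1.13 ± 0.12 at day 3 (adjusted p = 0.000604). CDX1, an intestinal homeobox factor, was at least 2.24-fold higher at day 3 (adjusted p = 0.00412) and at least 6.77-fold at day 8 (adjusted p = 4.64e-05), but its probe was not above background with DMSO on any day, so it entered the fit only through PLX4720 arrays and these p are a description. The counts of 4 and 3 above include CDX1, and that of 4 also CDX2, which was not above background with DMSO at day 3. CDX2 was 1.95 ± 0.25 higher at day 8 (adjusted p = 0.000905), and OVOL2, a repressor of mesenchymal genes, was 1.93 ± 0.19 higher (adjusted p = 0.000169).

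Genes of the MAPK output were lower with PLX4720 in both lines: 9 of 11 tested at day 1, 7 at day 3 and 7 at day 8 in HT29, and 7 of 12 in Colo-205, with 0 higher. Their median change was -1.74, -1.13 and -0.86 on the HT29 days and -2.11 in Colo-205. Of all genes tested, 10.8%, 7.53% and 8.62% were lower on the HT29 days and 0.752% in Colo-205. Of the 11 colon epithelial markers, 5 were higher at day 1, among them CDH17, a cadherin of intestinal epithelium, by 1.66 ± 0.15 (limma, adjusted p = 0.000121). At day 3, 5 were higher, CDX2 among them, which was not above background with DMSO that day. At day 8, 3 were higher and 1 lower. Of all genes tested, 11.8%, 8.95% and 7.34% were higher on these days. In Colo-205, 2 epithelial markers were lower, the keratins KRT8 (-1.32 ± 0.17, adjusted p = 0.0353) and KRT18 (-1.66 ± 0.16, adjusted p = 0.0213). None of the tested genes of the 5 junction lists passed there, where only 1.37% of all genes tested passed in either direction. As given for CLDN15, 0 of all genes passed without the PLX4720 or the DMSO array of day 3. The Colo-205 calls for the MAPK output and the keratins were thus also lost.

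**Figure D4:**
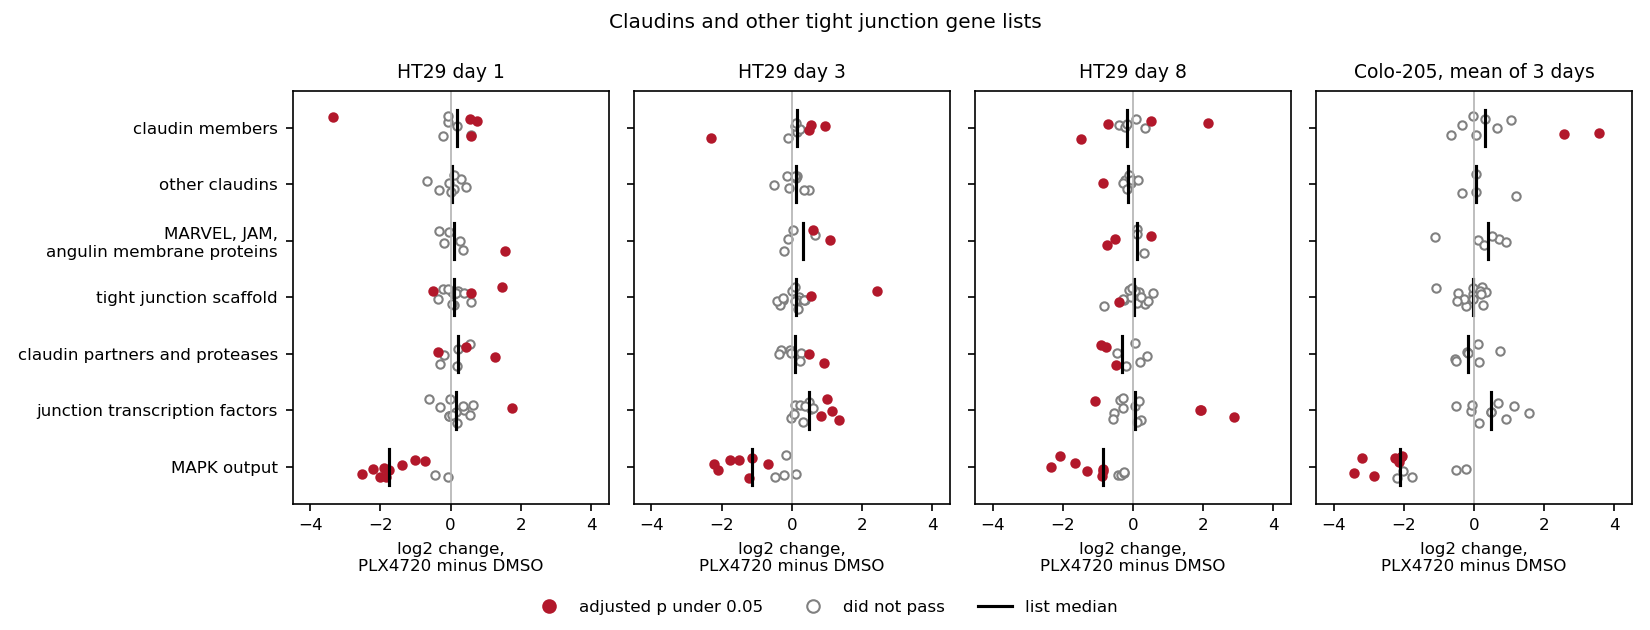
Log2 change with PLX4720 relative to DMSO (x axis) for the genes of each list (y axis) in HT29 at days 1, 3 and 8 and in Colo-205, with each tested gene a point (filled where the adjusted p was under 0.05) and a bar at the list's median. The MAPK output list has medians of -1.74, -1.13, -0.86 and -2.11, and the claudin members have medians of 0.18, 0.14 and -0.17 on the HT29 days.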

How the data were processed

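RNA from 18 cultures was hybridised to Illumina BeadChips. Per the file headers, the deposited non-normalised table holds the authors' raw intensity and detection p-value for 47323 probes, and a second deposited table holds the authors' processed values, used after a log2 transform as an alternative. The scanner software and its settings are not given here. Probes lacking a value on any array, 4 in number, did not enter. Background was corrected with limma's nec (normexp using the detection p-values, offset 16), quantile normalised over 18 arrays and log2 transformed. Probes with a detection p-value under 0.01 on at least 2 arrays of a fit were kept. Names came from the platform annotation, updated by Entrez ID through a RefSeq table (30113 probes with 1 symbol, 8 with several, 17202 with none). A gene was its brightest probe by mean log2 value. The column of HT29 PLX4720 day 8 replicate 1 carries the word "mean" in its deposited header and was used as 1 array.

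Fits used limma 3.58.1 in R 4.3.3 (lmFit and eBayes, two-sided, Benjamini-Hochberg over all genes, threshold 0.05): 12 HT29 arrays in 6 groups, 6 Colo-205 arrays with day as a block, and 12 arrays of days 1 and 3 for the lines. In Colo-205 the days stand in as replicates. Fits were also run on simulated data with independent noise at the spread of the HT29 duplicates and every kept probe above background. That run does not cover differences between days in Colo-205 or signal at background. Precision is limited by the number of arrays. Alternatives changed the background correction, the normalisation, the filter, the probe rule, the days or a replicate block, used the authors' table, or left out 1 array.

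Named genes were every claudin member, up to 3 genes with the smallest adjusted p of each other list and comparison, and 5 nearest profiles for CLDN1 and CLDN2. The members and lists were chosen with earlier results of these data known. Figures were drawn with matplotlib 3.10.9 in Python 3.11.15. Effects of PLX4720, but not levels, were compared between the lines.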

Additional observations from a re-analysis of the deposited data

Results flagged for a closer look

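Differences of the PLX4720 effect between days or between lines passed limma's test of the difference itself for CLDN1, CLDN2 and CLDN15. In HT29 the effect at day 8 minus the effect at day 1 was 1.58 ± 0.25 for CLDN1 (Benjamini-Hochberg adjusted p = 0.00382) and 1.87 ± 0.41 for CLDN2 (adjusted p = 0.0159). The CLDN1 effects were positive on all 3 days, at 0.57, 0.94 and 2.14, so the gap to DMSO was wider late. The CLDN2 effects were negative on all 3 days, at -3.35, -2.31 and -1.48, so the gap was narrower late.

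Between the lines, at days 1 and 3, the HT29 effect minus the Colo-205 effect was 1.43 ± 0.20 for CLDN1 (limma, adjusted p = 0.00503), -2.13 ± 0.47 for CLDN2 (adjusted p = 0.0372) and -1.93 ± 0.22 for CLDN15 (adjusted p = 0.00198). CLDN15 was higher with PLX4720 on each of these days in both lines. CLDN1 was above DMSO on the HT29 arrays of days 1 and 3 and below it on the Colo-205 arrays, and at day 10 the Colo-205 PLX4720 array was 2.26 above its DMSO array. The CLDN1 signal in Colo-205 was near background on some of these arrays. CLDN2 in Colo-205 read only 5.32 and 5.37 with DMSO at days 1 and 3, near background. A fall as large as that in HT29 could not be read from that level. The CLDN2 p between lines is thus a description, and that call was lost without any 1 of 9 arrays. For CLDN18 the fitted value was -3.14, with no test read from it, because its probe was above background on the Colo-205 PLX4720 arrays alone. That value was -1.62 with the authors' processed values, -0.47 without the Colo-205 PLX4720 array of day 1 and 0.18 without that of day 3, where probe ILMN_2389054 took its place. Each line had its own BeadChip, and the part of the BeadChip in these differences was not tested.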

How the results depend on the processing

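Apart from left-out arrays, 593 of the claudin values under the alternatives kept their direction and their side of the threshold, 25 newly passed, 19 no longer passed and 2 changed sign, and with 1 array left out these numbers were 802, 8, 65 and 29. The 2 sign changes were CLDN4 for the effect at day 8 minus day 1, at -0.0019 with the authors' table and -0.067 with median centring. The number of claudins past the threshold, here with CLDN18 included, was 1 in Colo-205 with no filter, 5 for the effect at day 8 minus day 1 with the authors' table, and 2 at HT29 day 3 with every probe fitted and 2 with no filter. Of all genes, 158 passed in Colo-205, but 464 with the authors' table, 247 with median centring, 461 with no background correction, 475 with normexp on the intensities alone and 18 with no filter. For the difference between lines 530 passed, but 967 with the authors' table, 954 with no background correction and 813 with normexp alone. The causes were not tested.

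Leaving out 1 array at a time, the number of claudins past the threshold was 0 to 2 in Colo-205, 1 to 3 for day 8 minus day 1 of the effect, 1 to 4 between lines, and in HT29 2 to 4 at day 1, 1 to 4 at day 3 and 1 to 4 at day 8. Over all genes it was 0 to 459 in Colo-205, 1223 to 2138 for day 8 minus day 1 of the effect, 127 to 449 between lines, 891 to 2276 for PLX4720 day 8 minus day 1, and 1857 to 3118, 833 to 2290 and 997 to 2043 at HT29 days 1, 3 and 8. Values that changed sign ranged, in Colo-205, from -0.68 to 0.82 for CLDN1, -0.070 to 0.033 for CLDN12 and -0.75 to 0.035 for CLDN23. Between lines they ranged from -0.072 to 0.048 for CLDN12 and -4.11 to 0.18 for CLDN18, where another probe replaced the first. With DMSO, day 8 minus day 1 ranged from -0.026 to 0.56 for CLDN18, -0.052 to 0.46 for CLDN2 and -0.14 to 0.21 for CLDN4. The effect at day 8 minus day 1 ranged from -0.12 to 0.48 for CLDN18 and -0.12 to 0.22 for CLDN4. CLDN18 at day 3 ranged from -0.34 to 0.23, CLDN4 from -0.047 to 0.30 at day 3 and -0.34 to 0.0046 at day 8, CLDN7 from -0.20 to 0.066 at day 1 and from -0.018 to 0.25 for PLX4720 day 8 minus day 1.

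Over all genes tested, HT29 replicate numbers paired the arrays little: deviations of same-numbered arrays correlated at -0.0197 to 0.13 over 15 pairs of groups. Single claudins did differ by replicate number: CLDN2 was brighter in replicate 2 and CLDN23 in replicate 1 of every HT29 group. With the replicate number as a block, CLDN15 at day 8 had an adjusted p of 0.0533, and CLDN23 passed at day 1 (adjusted p = 0.0353), for DMSO day 8 minus day 1 (adjusted p = 0.0361) and for the effect at day 8 minus day 1 (adjusted p = 0.0443). No other claudin call changed under the block. CLDN18 in both lines and CLDN2 in Colo-205 were limited by signal at background. CLDN1 and CLDN4 in Colo-205 were above background on all arrays but in part near it, from 4.86 to 7.13 and from 5.03 to 6.80.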
